A study of Mus musculus with 18 samples.

Results

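The effect of whole-ovary culture was described over both kinds of small follicle at once, by setting the 6 libraries of the *in vitro* group against the 6 libraries of the *in vivo* group with follicle stage as a covariate. These 12 libraries, of 18 in the series, were chosen by their labels alone, and the 6 libraries of metaphase II (MII) oocytes were left out because they were prepared with other kits. RNA came from oocytes cut out of fixed, paraffin-embedded and stained ovarian sections by laser capture microdissection (LCM), in which a laser frees chosen cells from a tissue section. Each stage, primordial and primary, had 3 libraries per condition. All mice were F1 hybrids of C57Bl/6j and CBA/J. In the *in vitro* group, ovaries were removed at an age of 7 days and kept for 7 days on inserts in α-MEM with 10% fetal bovine serum, insulin, transferrin, selenium, recombinant FSH and penicillin-streptomycin. In the *in vivo* group, ovaries of 14-day-old mice were fixed without culture. The conditions therefore shared the nominal age of the tissue and differed in everything the culture brought with it. Captured oocytes were pooled for each stage, and the labels do not say whether the 3 libraries of a group came from separate animals, so all p-values measure the spread between these libraries, which may be technical.

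In a primordial follicle, an oocyte arrested in meiotic prophase is enclosed by flat pregranulosa cells. On activation these cells become cuboidal and divide, the follicle is then called primary, and the oocyte begins to grow and to store transcripts and proteins. Oocytes depend on the surrounding somatic cells for much of their sterol and for part of their energy metabolism, and whole-ovary culture replaces blood supply and circulating hormones with medium.

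Library totals lay between 15149564 and 29205503 counts. A gene was taken as detected above 3 counts, which is 0.103 to 0.198 CPM in these libraries. CPM are counts scaled to the library total, and below they are also scaled by TMM normalization. Floors of this kind cover counting error only. Between 4842 and 11710 genes were detected per library. The mean was 7943 ± 2182 genes (SD, n = 6) *in vivo* and 8917 ± 2208 *in vitro*, a difference of 974 (exact permutation test within stages, two-sided p = 0.45). The 10 genes with the most counts took 8.66 ± 1.46% of the counts (SD, n = 6) *in vivo* and 6.95 ± 0.705% *in vitro* (exact permutation p = 0.025, 0.10 after Benjamini-Hochberg adjustment over 4 library measures; the smallest p this design allows is 0.005). Libraries of one group and libraries of different conditions overlapped in their likeness. Spearman's rho across genes was 0.483 to 0.776 (median 0.549) between libraries of the same group and 0.475 to 0.687 (median 0.540) between conditions at the same stage. The mean distance between conditions was 1.025 times the mean distance within conditions (one-sided exact permutation p = 0.14 over 400 arrangements, adjusted p = 0.28; the smallest p allowed is 0.0025).

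Oocyte RNA was present in every library. Of 25 oocyte markers tested, 19 to 25 were detected in the *in vivo* libraries and 17 to 25 in the *in vitro* libraries. Their summed level was 604 to 1658 CPM (median 923) *in vivo* and 272 to 1828 CPM (median 645) *in vitro*, so the conditions overlapped. *Ddx4*, the germ cell RNA helicase and the oocyte marker with the highest mean, had 119 to 848 CPM (median 332) *in vivo* and 5.18 to 296 CPM (median 81.8) *in vitro*. Its fitted difference, *in vitro* over *in vivo*, was -1.84 ± 1.34 (log2, SE; edgeR adjusted p = 0.690). *Zp3*, which encodes a zona pellucida protein, had 2.35 to 47.7 CPM *in vivo* and 3.05 to 77.9 CPM *in vitro*. Markers of the neighbouring cells were present as well. The 18 granulosa markers summed to 230 to 1639 CPM *in vivo* and 949 to 3487 CPM *in vitro*, and the 13 markers of stroma and theca to 1110 to 26350 CPM and 1706 to 11070 CPM. The second *in vivo* library of primary follicles stood apart, with the highest sums of stroma and smooth muscle markers, and the medians of these lists are given below with and without it. In such samples, fewer cells of a type and less RNA per cell cannot be told apart.

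No gene passed the test over both stages. Among 15317 genes tested with edgeR's quasi-likelihood test, 0 were called higher and 0 lower *in vitro* (0% each) at an adjusted p under 0.05 with a fold change of at least 2, and the smallest adjusted p was 0.239. At an unadjusted p under 0.05, 1042 genes were higher (6.80%) and 770 lower (5.03%), in all 1812 (11.8%). The common biological coefficient of variation, a single value over all genes with stage and condition as terms, was 2.14. At that value, counts vary between libraries by more than their mean. It takes in the many genes read in few libraries and any difference of the culture effect between the stages. The count of calls depended on the tool. DESeq2 with its defaults called 180 genes higher (2.36% of the 7619 genes to which it gave an adjusted p) and 127 lower (1.67%). limma-voom with sample quality weights called 7 higher (0.0457%) and 1 lower (0.00653%). The count also depended on single libraries. Without the second *in vivo* library of primary follicles edgeR called 7 higher and 6 lower, and without the third 2 and 10. Without the first *in vivo* library of primordial follicles it called 0 and 7, without the third 1 and 6, and without each of the other 8 libraries at most 1 higher and 2 lower.

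Large fitted changes belonged mostly to genes read in few libraries. Of the genes tested, 1815 were above 3 counts in a single library, and these gave 711 of the 1812 genes with an unadjusted p under 0.05. The 1869 genes above 3 counts in all 12 libraries gave 34, of which 8 were higher and 26 lower *in vitro*. Among these 1869 genes, 828 had a positive and 1041 a negative log2 fold change, with a median of -0.13, against 0.14 over all genes tested.

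**Figure D1:**
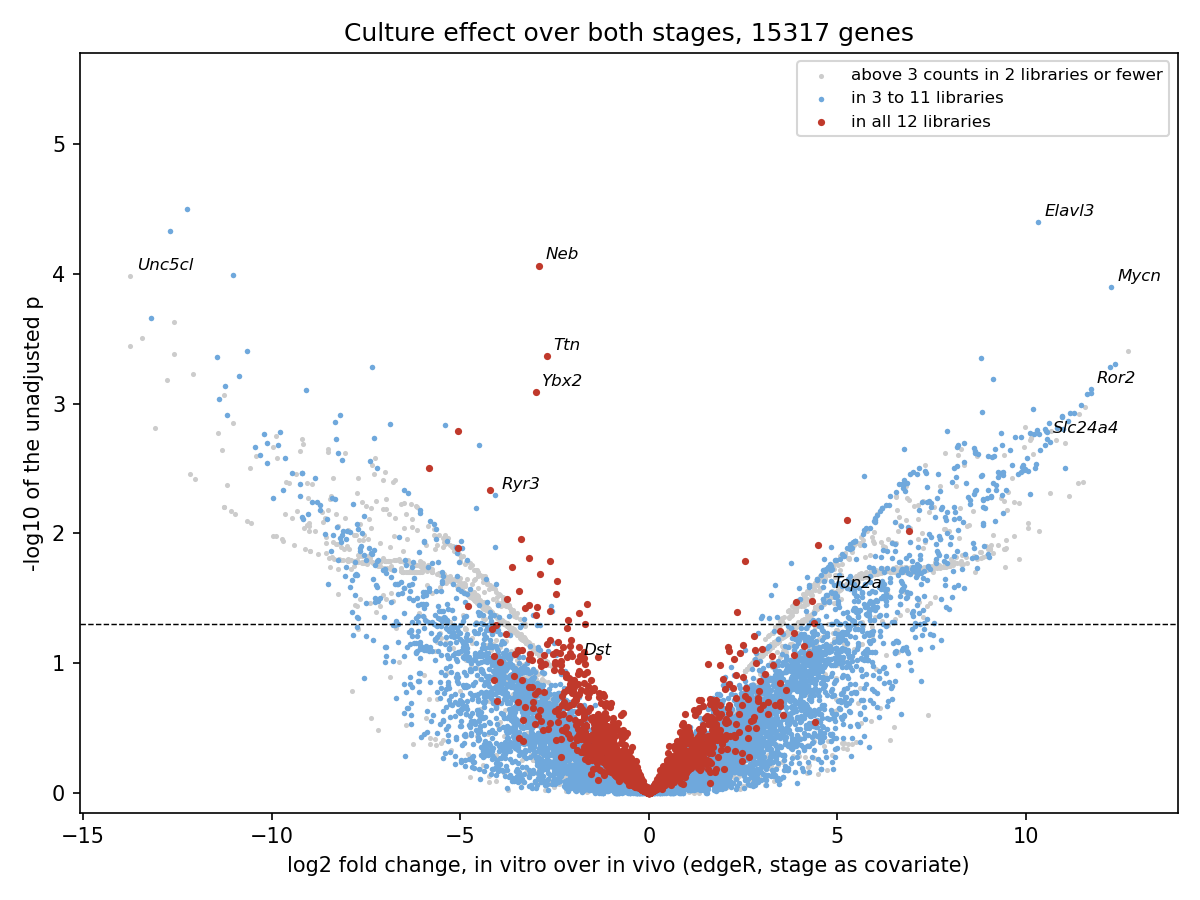
Log2 fold change of *in vitro* over *in vivo* (x axis) against the unadjusted edgeR p as -log10 (y axis) for 15317 genes, coloured by the number of libraries above 3 counts, with a dashed line at 0.05. The largest fold changes are grey or blue (few libraries), and *Neb*, *Ttn* and *Ybx2* stand highest among the 1869 red genes read in all 12 libraries.

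Of the genes read in every library, those with the smallest unadjusted edgeR p, *Neb*, *Ttn* and *Ybx2*, were lower after culture. Larger fold changes were also fitted among genes read in every library, as for *Sema6d* below (log2 4.33, higher). *Neb*, on chr2:52136647-52378474 (GRCm38), encodes nebulin, a giant protein that sets the length of thin filaments in skeletal muscle. In primordial follicles its reads numbered 175860, 301158 and 376268 in the 3 *in vivo* libraries and 10901, 39713 and 18756 in the *in vitro* libraries. In primary follicles they numbered 32718, 27611 and 61713 *in vivo* and 6608, 16208 and 15572 *in vitro*. Within each stage the conditions did not overlap, and over both stages only the highest *in vitro* library (1468 CPM) exceeded the lowest *in vivo* library (1108 CPM). The mean was 7452 ± 7069 CPM (SD, n = 6) *in vivo* and 760 ± 425 CPM *in vitro*, a 9.81-fold lower mean. The log2 fold change was -2.90 ± 0.71 (SE; edgeR adjusted p = 0.266). The predicted gene Gm13521 overlaps *Neb* on the same strand. *Neb* was the gene that limma-voom called lower (adjusted p = 0.0443), DESeq2 also called it lower (adjusted p = 0.00471), and over all other settings its log2 fold change lay between -3.29 and -2.62.

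*Ttn* encodes titin, the elastic giant protein of the sarcomere, and lies on chr2:76703980-76982547. It had 1644 to 12860 CPM (median 3062) *in vivo* and 227 to 2431 CPM (median 811) *in vitro*. The conditions separated within both stages but overlapped across them. Its log2 fold change was -2.71 ± 0.75 (edgeR adjusted p = 0.317; DESeq2 adjusted p = 0.0718). *Ybx2*, the germ cell Y-box protein that binds stored messenger RNA in growing oocytes, had 324 to 11390 CPM (median 1979) *in vivo* and 150 to 1020 CPM (median 323) *in vitro*. Its reads in primary follicles were 195117, 25678 and 52350 *in vivo* and 9950, 11092 and 10410 *in vitro*, and in primordial follicles 7556, 30014 and 101427 *in vivo* and 3575, 27591 and 3091 *in vitro*. The primary-follicle groups were apart, whereas those of primordial follicles overlapped. The log2 fold change of *Ybx2* was -3.00 ± 0.87 (edgeR adjusted p = 0.317; DESeq2 adjusted p = 0.0396), and it was named after its values were seen.

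Only 2 of 15317 genes (0.0131%) were lower in all 6 *in vitro* libraries than in all 6 *in vivo* libraries. *Dst*, which encodes the cytoskeletal linker dystonin, had 443 to 1170 CPM (median 668) *in vivo* and 120 to 284 CPM (median 182) *in vitro*. Its means were 712 ± 243 CPM (SD, n = 6) and 190 ± 58.7 CPM, 3.74-fold lower *in vitro*. edgeR gave *Dst* a log2 fold change of -1.89 ± 1.13 with an adjusted p of 0.504, and DESeq2 an adjusted p of 0.0426. *Ryr3*, a calcium release channel of the endoplasmic reticulum, had 246 to 4569 CPM (median 402) *in vivo* and 0 to 234 CPM (median 28.7) *in vitro*, with 0 reads in 1 library of primordial follicles. Its log2 fold change was -4.07 ± 1.43 (edgeR adjusted p = 0.317). *Neb*, *Ttn*, *Ryr3* and *Dst* are long transcripts, with 26582, 116825, 18977 and 41155 bases of annotated exons, whereas *Ybx2* has 1885. Of the 1869 genes read in all libraries, 315 had over 12000 bases of exons, of which 204 had a log2 fold change below 0, with a median of -0.36. Across the 1869 genes Spearman's rho of length and log2 fold change was -0.091, a description only, since the genes share their libraries, and the part of transcript length in these differences was not tested.

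In the other direction, 21 genes (0.137%) were higher in all 6 *in vitro* libraries than in all 6 *in vivo* libraries. With stages kept apart, 38 genes (0.248%) were higher at both stages with no overlap of 3 libraries against 3, and 11 (0.0718%) were lower at both, among them *Neb*, *Ttn*, *Ryr3* and *Dst*. These counts stand against 7 genes (0.0457%) that were separately higher in primordial and lower in primary follicles and 70 (0.457%) with the reverse order. Within 1 stage alone the separate genes leaned opposite ways. In primordial follicles 313 (2.04%) were higher and 697 (4.55%) lower, and in primary follicles 1339 (8.74%) were higher and 191 (1.25%) lower. In primary follicles, 11094, 8880 and 11710 genes were detected in the *in vitro* libraries and 4842, 10283 and 7163 in the *in vivo* libraries. In primordial follicles it was 5703, 7966 and 8147 genes *in vitro* and 8690, 10240 and 6438 *in vivo*. The part of detection in these counts was not tested.

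Several of the separate genes were at or near 0 *in vivo*. *Ror2*, a receptor tyrosine kinase for Wnt5a, had 0 reads in all 6 *in vivo* libraries. After culture it had 2672, 2020 and 15 reads in primordial follicles and 74, 1 and 18 in primary follicles. Its mean *in vitro* was at least 342-fold higher than the mean floor of 3 counts per library, and 71.0% of its summed CPM came from 1 library (edgeR adjusted p = 0.317). *Slc24a4*, a potassium-dependent sodium/calcium exchanger, had a single read *in vivo*. *In vitro* it had 262, 694 and 592 reads in primordial and 1223, 71 and 43 in primary follicles, which is 1.33 to 39.8 CPM. limma-voom called *Slc24a4* higher (adjusted p = 0.00598), as did DESeq2 (adjusted p = 1.23e-08), whereas edgeR gave an adjusted p of 0.317. *Ndrg3*, a member of the NDRG family that binds lactate, had 0 to 0.471 CPM *in vivo* and 3.68 to 211 CPM (median 38.2) *in vitro*, and was also called by limma-voom (adjusted p = 0.00708) and by DESeq2 (adjusted p = 5.04e-09).

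*Nfatc2*, a calcineurin-dependent transcription factor, had 8 reads in 1 *in vivo* library and 0 in the other 5. *In vitro* it had 32, 64 and 88 reads in primordial follicles and 1557, 1415 and 1317 in primary follicles. The primary libraries were thus close together and well above the primordial ones (limma-voom adjusted p = 0.0153, edgeR adjusted p = 0.326). *Pgp*, a phosphoglycolate phosphatase, had 39 reads in 1 *in vivo* library, at most 1 in the others and 164 to 1654 reads *in vitro* (limma-voom adjusted p = 0.0227). *Aacs*, which makes acetoacetyl-CoA from ketone bodies for lipid synthesis, had a single read *in vivo* and 3, 9 and 15 reads in primordial and 199, 23 and 567 in primary follicles *in vitro*. *Utp15*, a factor of ribosomal RNA processing, had 0 to 0.470 CPM *in vivo* and 1.30 to 46.9 CPM (median 14.9) *in vitro*. *Ttc4*, a co-chaperone of HSP90, had reads in all 12 libraries, at 0.129 to 0.843 CPM (median 0.419) *in vivo* and 24.1 to 453 CPM (median 36.5) *in vitro*. The fitted log2 difference of *Ttc4* was 7.48 ± 2.67 (edgeR adjusted p = 0.317).

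The other separate genes outside predicted gene models were named after their values were seen. *Sema6d*, a transmembrane semaphorin, had 0.217 to 26.3 CPM (median 1.18) *in vivo* and 63.3 to 228 CPM (median 160) *in vitro*, a mean 20.4-fold higher (edgeR adjusted p = 0.359). Its log2 fold change was nearly the same at both stages, 4.40 in primordial and 4.26 in primary follicles. *Snx9*, a sorting nexin of endocytosis, had 0 to 41.6 CPM (median 1.99) *in vivo* and 77.7 to 339 CPM (median 115) *in vitro* (edgeR adjusted p = 0.359). *Znrf3*, a ubiquitin ligase that removes Wnt receptors, had 0 to 3.21 CPM *in vivo* and 14.4 to 129 CPM (median 63.5) *in vitro* (edgeR adjusted p = 0.340). *Iars*, *Plxna2*, *Erh*, *Itsn2*, *Isoc1*, *Mcm3*, *Rc3h1* and *Evc2* completed the set, with log2 fold changes between 1.88 (*Rc3h1*) and 5.00 (*Evc2*).

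**Figure D2:**
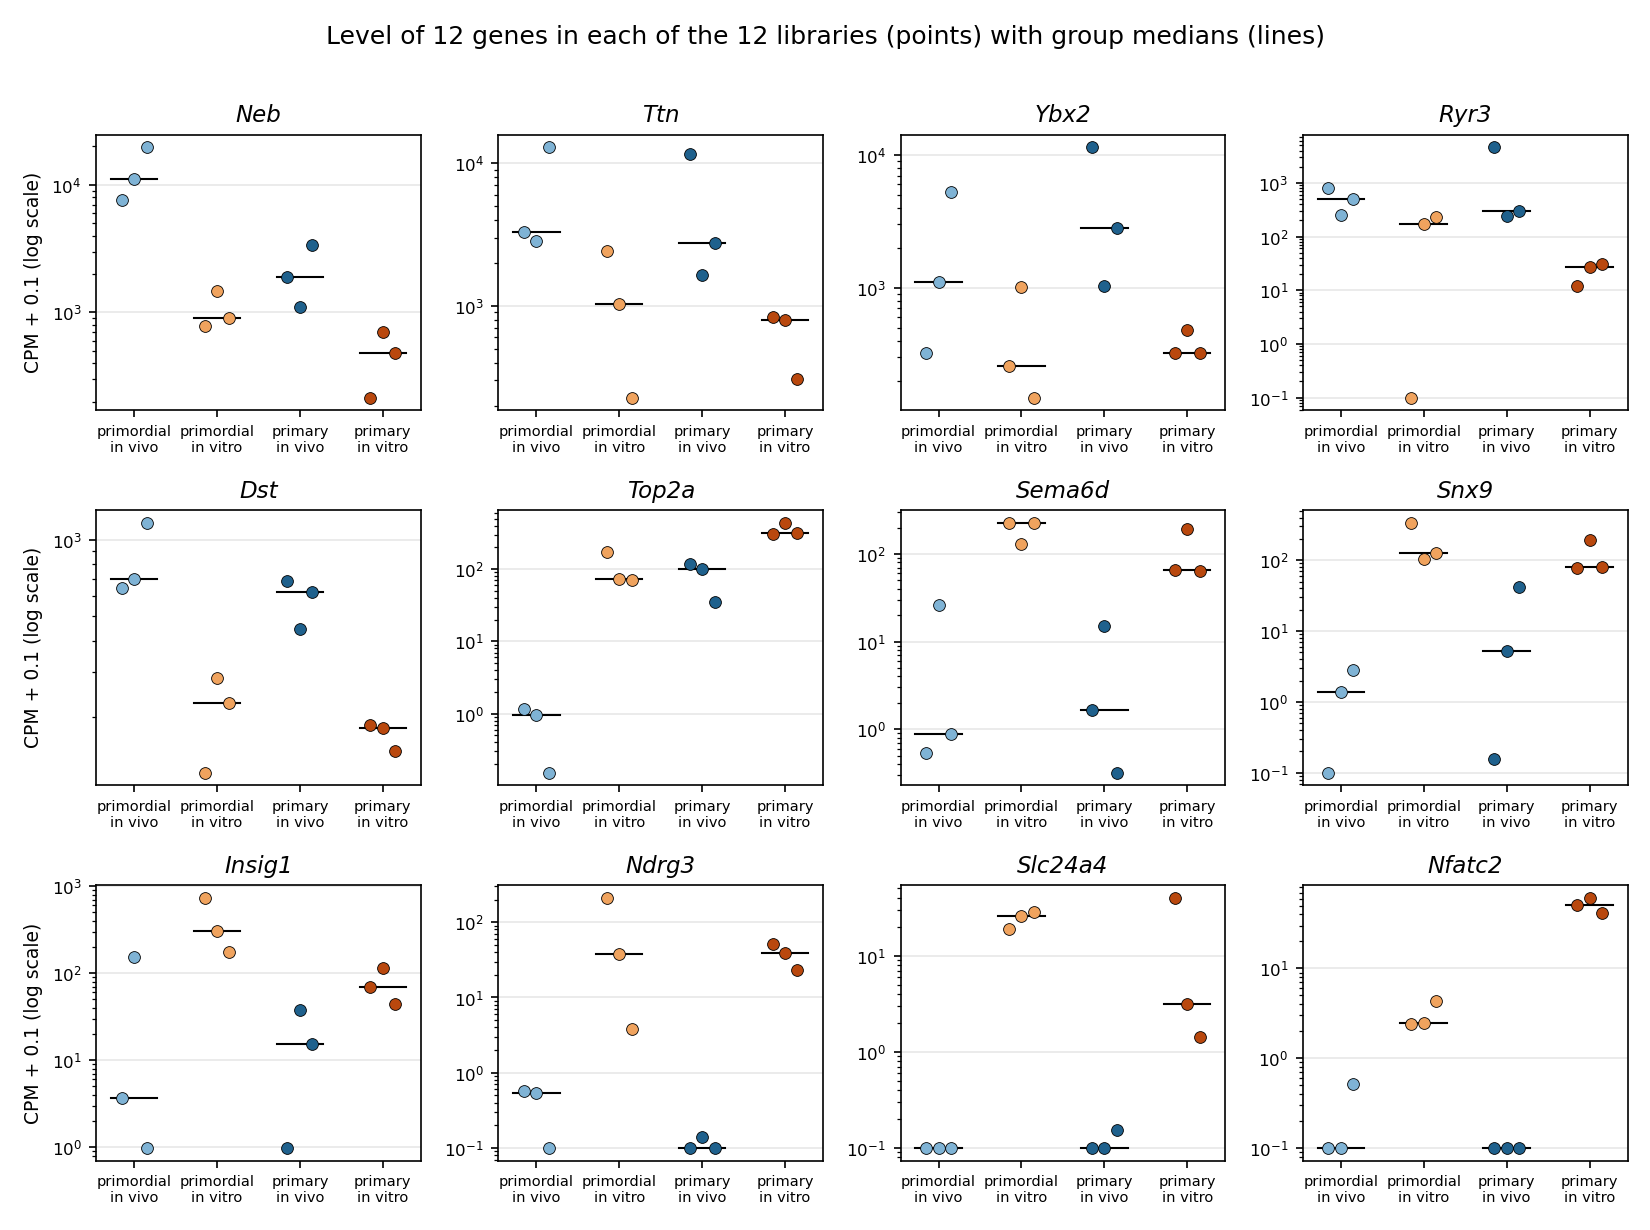
Level (CPM + 0.1, log scale) of 12 genes in each of the 12 libraries, by stage and condition; points are libraries and lines are medians of 3. *Neb*, *Ttn*, *Ryr3* and *Dst* are lower *in vitro* at both stages with no overlap, *Ybx2* overlaps in primordial follicles, and the other 7 genes are higher *in vitro* at both stages with no overlap.

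Most of the other genes with the smallest p-values, *Neb* and *Ttn* aside, had a small number of high libraries. *Elavl3*, a neuronal RNA-binding protein, had 14940 reads in 1 *in vitro* library of primordial follicles and 0 in the other 2, against 1663, 21463 and 2723 in primary follicles. *In vivo* it had at most 23 reads (edgeR adjusted p = 0.239). *Mycn*, the N-Myc transcription factor, had at most 1 read in any *in vivo* library and 4497, 0 and 143 *in vitro* in primordial and 1418, 3543 and 1437 in primary follicles (edgeR adjusted p = 0.276). It was called by limma-voom (adjusted p = 0.0141). *Il17ra* had 84.4% and *Rpf2* 67.4% of their summed CPM in 1 library. *Mt3*, *Tomm40l*, *Grm2*, *Timm10*, *Eml2*, *Kcnc2* and *Barx2* had 0 reads in all *in vivo* libraries and 0 in between 2 and 4 of the *in vitro* libraries.

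Among the lower genes, *Tmem47*, a membrane protein of cell junctions, had 2032, 4514, 6417 and 10553 reads in 4 *in vivo* libraries and 0 in the other 2, and at most 37 *in vitro* (edgeR adjusted p = 0.266; DESeq2 adjusted p = 1.10e-05). *Asxl3* had 5868 and 5955 reads in its 2 highest *in vivo* libraries and at most 5 *in vitro*. *Unc5cl*, *Col8a2*, *Scn2a*, *Calb1* and *Ppp4r4* had 0 reads in all 6 *in vitro* libraries, and between 72.3% (*Unc5cl*) and 97.4% (*Calb1*) of their summed CPM came from 1 *in vivo* library. *Ctnnd2* (70.0%) and *Prkg1* (87.0%) leaned on 1 library in the same way.

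The culture effects at both stages were nearly unrelated across genes. They come from disjoint sets of libraries. Over 13452 genes with reads at both stages, Pearson's r of the log2 fold changes was 0.022 and 50.2% had the same sign. Over the 1869 genes read in all libraries r was 0.066 and 51.5% had the same sign. These are descriptions across genes of the same libraries.

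**Figure D3:**
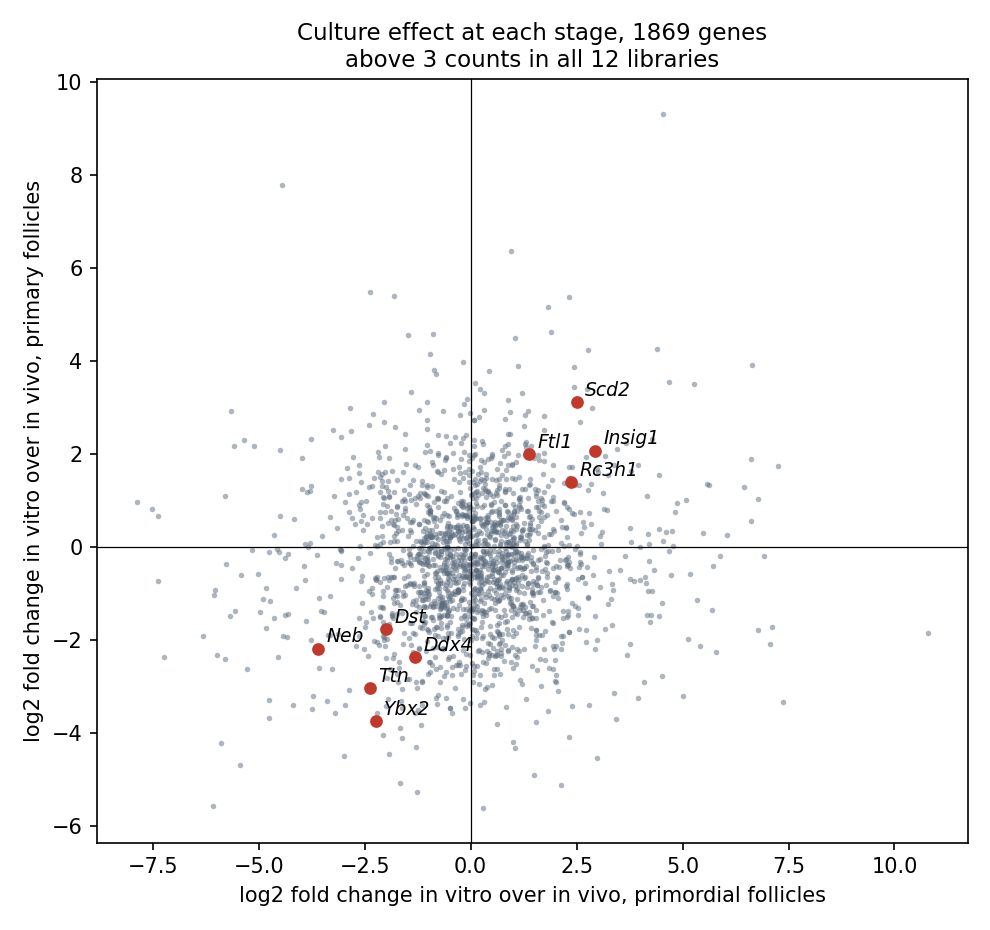
Log2 fold change of *in vitro* over *in vivo* in primordial (x axis) against primary follicles (y axis) for the 1869 genes above 3 counts in all 12 libraries, with 9 named genes in red. The cloud has no slope (r = 0.066), and *Neb*, *Ttn*, *Ybx2*, *Dst* and *Ddx4* lie below 0 on both axes and *Scd2*, *Insig1*, *Ftl1* and *Rc3h1* above 0 on both.

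At each stage by itself edgeR called few genes. In primordial follicles 4 were called higher (0.0261%) and 1 lower (0.00653%), with 691 (4.51%) and 1108 (7.23%) at an unadjusted p under 0.05. The higher genes were *D6Ertd527e* and *Ptp4a1* and the tubulin genes *Tubb3* and *Tubb6*, and the lower one was the histone gene *Hist1h2ai*, of which *Tubb6* and *Hist1h2ai* were named after their values were seen. In primary follicles 0 were called in either direction (0%), with 1063 higher (6.94%) and 416 lower (2.72%) at an unadjusted p under 0.05. DESeq2 called 812 genes in primordial and 254 in primary follicles. The interaction, which asks whether the culture effect differed between the stages, was called for 16 genes, 11 with a more positive effect in primary follicles (0.0718%) and 5 with a more negative one (0.0326%). *Ptp4a1*, a phosphatase linked to proliferation, had 8, 15 and 9 reads *in vivo* and 30050, 82 and 5996 *in vitro* in primordial follicles, against 26314, 9485 and 8974 *in vivo* and 11071, 5430 and 2376 *in vitro* in primary follicles. Its log2 fold change was 10.79 in primordial and -1.85 in primary follicles, with an interaction of -12.64 (edgeR adjusted p = 0.0284). *D6Ertd527e* (-13.29, edgeR adjusted p = 0.0229) and *Tubb3*, a neuronal beta-tubulin (-13.42, edgeR adjusted p = 0.0229), had interactions of the same sign. *Tubb3* had 0, 34275 and 2 reads *in vitro* in primordial follicles, and without the second of these libraries its interaction was -0.56 (edgeR adjusted p = 1.00). *Pcdha6*, *Crem* and *Hist1h2ag* had interactions of the opposite sign, but 99.4%, 99.3% and 81.4% of their summed CPM came from 1 library. For *Hist1h2ag* that was an *in vivo* library of primordial follicles. In primary follicles *Hist1h2ag* had 0, 33 and 0 reads *in vivo* and 2422, 9245 and 3963 *in vitro*. *Pcdha6* shares exons with its gene cluster and *Hist1h2ag* has near-identical copies, so reads could be split between genes. Another annotated entry of the same name overlaps *Ptp4a1* on the same strand, so its reads could be split too. In the 16 other fits of this interaction, *Ptp4a1* kept its sign in all and its call in 6.

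Of the pathway lists, that of sterol and fatty acid synthesis was among those with the most one-sided values. Cells make cholesterol and fatty acids through enzymes whose genes are switched on by SREBP transcription factors when sterols run low, and INSIG1 holds back SREBP when sterols are plentiful. Of 26 genes tested, 23 had a log2 fold change above 0 and 3 below, with a median of 1.04, against 8049 of 15317 above 0 and a median of 0.14 over all genes. In this list and in each of the other 23, edgeR called 0 genes higher and 0 lower, and DESeq2 called between 0 and 2 genes of a list. Of the sterol list, 2 were called by DESeq2 (307 of 7619 over all genes), and 3 had an unadjusted p under 0.05 by edgeR, all higher (6.80% over all genes). Of the 6 members read in all libraries, 5 were above 0, with a median of 0.67. Under other scalings the median of the list was 0.78 to 1.18, and without each library in turn 0.66 to 1.61. In primordial follicles the list median was 0.97 and in primary follicles 1.97, against 0 and 0.44 over all genes.

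*Insig1*, on chr5:28071363-28078662, had 83, 4142 and 17 reads *in vivo* and 10192, 8273 and 3633 *in vitro* in primordial follicles, and 15, 939 and 279 *in vivo* and 2136, 2617 and 1415 *in vitro* in primary follicles. In CPM the conditions were apart at each stage. Its mean was 35.3 ± 59.7 CPM (SD, n = 6) *in vivo* and 240 ± 259 CPM *in vitro*, and its log2 fold change 2.51 ± 1.64 (edgeR adjusted p = 0.590). *Scd2*, a stearoyl-CoA desaturase that makes monounsaturated fatty acids, had 1.23 to 99.96 CPM (median 21.02) *in vivo* and 35.4 to 456.1 CPM (median 325) *in vitro* (log2 fold change 2.81 ± 1.59, edgeR adjusted p = 0.478). Its relative *Scd1* had 3 reads in 1 *in vivo* library and 0 in the others. *In vitro* it had 2, 0 and 56 reads in primordial and 3, 1104 and 85 in primary follicles (edgeR adjusted p = 0.317; DESeq2 adjusted p = 0.00897). *Msmo1*, a sterol methyl oxidase of cholesterol synthesis, had 0 reads in all *in vivo* libraries, 0, 0 and 3 in primordial and 5, 701 and 82 in primary follicles *in vitro* (edgeR adjusted p = 0.317). *Elovl6*, a fatty acid elongase, had 6 reads in 1 *in vivo* library and 0 to 971 *in vitro*.

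The promoters of *Insig1* and *Msmo1* are shown because SREBP and the factor NF-Y are known to act together on such genes, and that of *Hmgcs1*, the HMG-CoA synthase gene, because it held the one match of the list to the sterol response element letters. Windows from 250 bases before to 50 after the start come from RefSeq (GRCm38.p6). Searched on both strands were TCACNCCAC (sterol response element), CCAAT (NF-Y) and GGGCGG (Sp1). Matches are in capitals, and those on the other strand appear as their reverse complement. *Insig1* lies at chr5:28071162-28071461 (plus strand), *Msmo1* at chr8:64733529-64733828 (minus strand) and *Hmgcs1* at chr13:119690101-119690400 (plus strand).
Insig1: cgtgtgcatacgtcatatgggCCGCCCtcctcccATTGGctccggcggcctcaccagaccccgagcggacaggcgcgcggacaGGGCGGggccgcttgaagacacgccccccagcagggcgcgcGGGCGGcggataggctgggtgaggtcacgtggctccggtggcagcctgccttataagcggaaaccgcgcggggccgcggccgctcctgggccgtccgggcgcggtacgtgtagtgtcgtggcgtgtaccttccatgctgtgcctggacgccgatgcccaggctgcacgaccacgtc
Msmo1: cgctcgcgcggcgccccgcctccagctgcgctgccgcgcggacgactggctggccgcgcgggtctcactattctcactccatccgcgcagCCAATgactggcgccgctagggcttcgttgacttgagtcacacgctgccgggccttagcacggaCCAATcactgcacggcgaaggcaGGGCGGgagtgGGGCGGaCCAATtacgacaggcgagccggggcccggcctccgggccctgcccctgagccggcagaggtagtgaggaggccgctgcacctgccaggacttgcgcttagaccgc
Hmgcs1: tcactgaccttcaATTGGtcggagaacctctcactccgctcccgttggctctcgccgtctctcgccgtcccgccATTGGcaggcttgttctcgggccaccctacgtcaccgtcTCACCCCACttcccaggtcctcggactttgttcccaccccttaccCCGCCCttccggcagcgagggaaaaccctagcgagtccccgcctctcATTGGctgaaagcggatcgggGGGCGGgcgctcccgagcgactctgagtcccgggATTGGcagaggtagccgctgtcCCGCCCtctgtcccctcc
Of the 26 genes, 17 had a promoter in the table. CCAAT was found in 15 of these 17 and in 37.4% of all 32851 promoters, GGGCGG in 14 and in 35.7%, and TCACNCCAC in 1 and in 1.24%. The list was counted by gene, with a match in any of its promoters, and the shares by promoter, so they are not like for like. *Hmgcs1* itself had 0 to 1028 CPM (median 64.9) *in vivo* and 0 to 435 CPM (median 156) *in vitro*, and its fitted log2 difference was 0.75 ± 1.92 (edgeR adjusted p = 1). A match describes these letters only.

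Granulosa markers had the highest median among the lists of 10 genes or more. Of 18 tested, 16 were above 0 and 2 below, with a median log2 fold change of 1.54. Of these, 2 had an unadjusted p under 0.05 by edgeR, both higher (6.80% over all genes), and DESeq2 called 1. Without the third *in vitro* library of primary follicles 0 had an unadjusted p under 0.05. *Amh*, the hormone that granulosa cells of growing follicles secrete, had 12 and 1 reads in 2 *in vivo* libraries of primary follicles and 0 in the other 4. *In vitro* it had 14, 28 and 4 reads in primordial and 40, 11 and 300 in primary follicles (log2 fold change 5.44 ± 2.46, edgeR adjusted p = 0.342; DESeq2 adjusted p = 0.0180). *Inhbb*, the activin and inhibin beta-B subunit, had 1270 and 2786 reads in 2 *in vitro* libraries, at most 5 in the other 4 and at most 20 *in vivo* (edgeR adjusted p = 0.317). *Foxl2*, the granulosa transcription factor, had 1.15 to 462 CPM (median 30.0) *in vivo* and 0 to 863 CPM (median 214) *in vitro*, and *Wt1* 5.79 to 1212 CPM (median 296) and 304 to 2225 CPM (median 536). Both overlapped between the conditions. Without each library in turn the list median lay between 1.13 and 2.73. Among 34 genes of TGF-β, BMP and activin signalling, which share *Inhbb*, 22 were above 0, with a median of 1.26 (1.10 with genes at 0 in one condition set to their bound). *Bmp2* had 3115 reads in 1 *in vitro* library, at most 3 in the others and 0 *in vivo*.

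Of 32 heat shock and unfolded protein response genes, 26 were above 0 (8049 of 15317 over all genes), with a median of 0.93. Of these, 4 had an unadjusted p under 0.05, all higher (6.80% over all genes), which became 1 without the second *in vivo* library of primary follicles or the third of primordial follicles, and DESeq2 called 1. Over the 16 members read in all libraries the median was 0.39, with 13 above 0. The genes given here with CPM were chosen after their values were seen. *Calr*, a calcium-binding chaperone of the endoplasmic reticulum, had 14.1 to 491 CPM (median 165) *in vivo* and 298 to 697 CPM (median 521) *in vitro* (log2 fold change 1.70 ± 1.33, edgeR adjusted p = 0.750). *Pdia4*, a disulfide isomerase, had 0.643 to 56.7 CPM (median 19.5) *in vivo* and 29.3 to 136 CPM (median 75.3) *in vitro*. *Hspd1*, the mitochondrial HSP60 chaperone, had 18.9 to 328 CPM (median 209) *in vivo* and 107 to 2847 CPM (median 541) *in vitro* (log2 fold change 2.09 ± 1.16, edgeR adjusted p = 0.475). *Hspa5*, the main chaperone of the endoplasmic reticulum, differed less, with 173 to 674 CPM and 493 to 1076 CPM. *Hspa8*, the constitutive cytosolic HSP70, had the opposite sign (-0.82 ± 0.77). *Hspa1b*, the inducible HSP70, had 1444 reads in 1 library of primary follicles *in vitro*, 2 in another and 0 in all the rest, and *Trib3* 50 reads in 1 library and 1 in another.

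Cell cycle genes had 27 of 43 above 0, with a median of 0.79, and 3 at an unadjusted p under 0.05, all higher, which is near the 6.80% over all genes, and DESeq2 called 2. The 6 members read in all 12 libraries had the opposite lean, with 2 above and 4 below 0 and a median of -0.70. The genes named next were chosen after their values were seen and were all higher. *Top2a*, the topoisomerase of dividing cells, had 25, 23 and 1 reads *in vivo* and 2434, 1952 and 1481 *in vitro* in primordial follicles. In primary follicles it had 1988, 2509 and 638 reads *in vivo* and 9532, 10189 and 10242 *in vitro*. The conditions were apart within each stage. Its log2 fold change was 7.32 in primordial, 2.09 in primary follicles and 4.69 ± 2.13 over both (edgeR adjusted p = 0.347; DESeq2 adjusted p = 0.00954). *Mcm3*, a subunit of the replicative helicase, had 0 to 33.0 CPM *in vivo* and 51.7 to 150 CPM *in vitro* (edgeR adjusted p = 0.742). *Haspin*, the histone H3 kinase of mitosis, had 0 to 0.514 CPM *in vivo* and 0.0863 to 7.19 CPM *in vitro*. In primordial follicles the summed granulosa markers were 1639, 1148 and 230 CPM *in vivo* and 1105, 949 and 3487 CPM *in vitro*. The source of the *Top2a*, *Mcm3* and *Haspin* reads, by cell type, was not tested. *Rac1*, a small GTPase of the actin cytoskeleton, had 0 to 183 CPM *in vivo* and 109 to 1348 CPM *in vitro*, apart at both stages. It was also named after its values were seen.

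**Figure D4:**
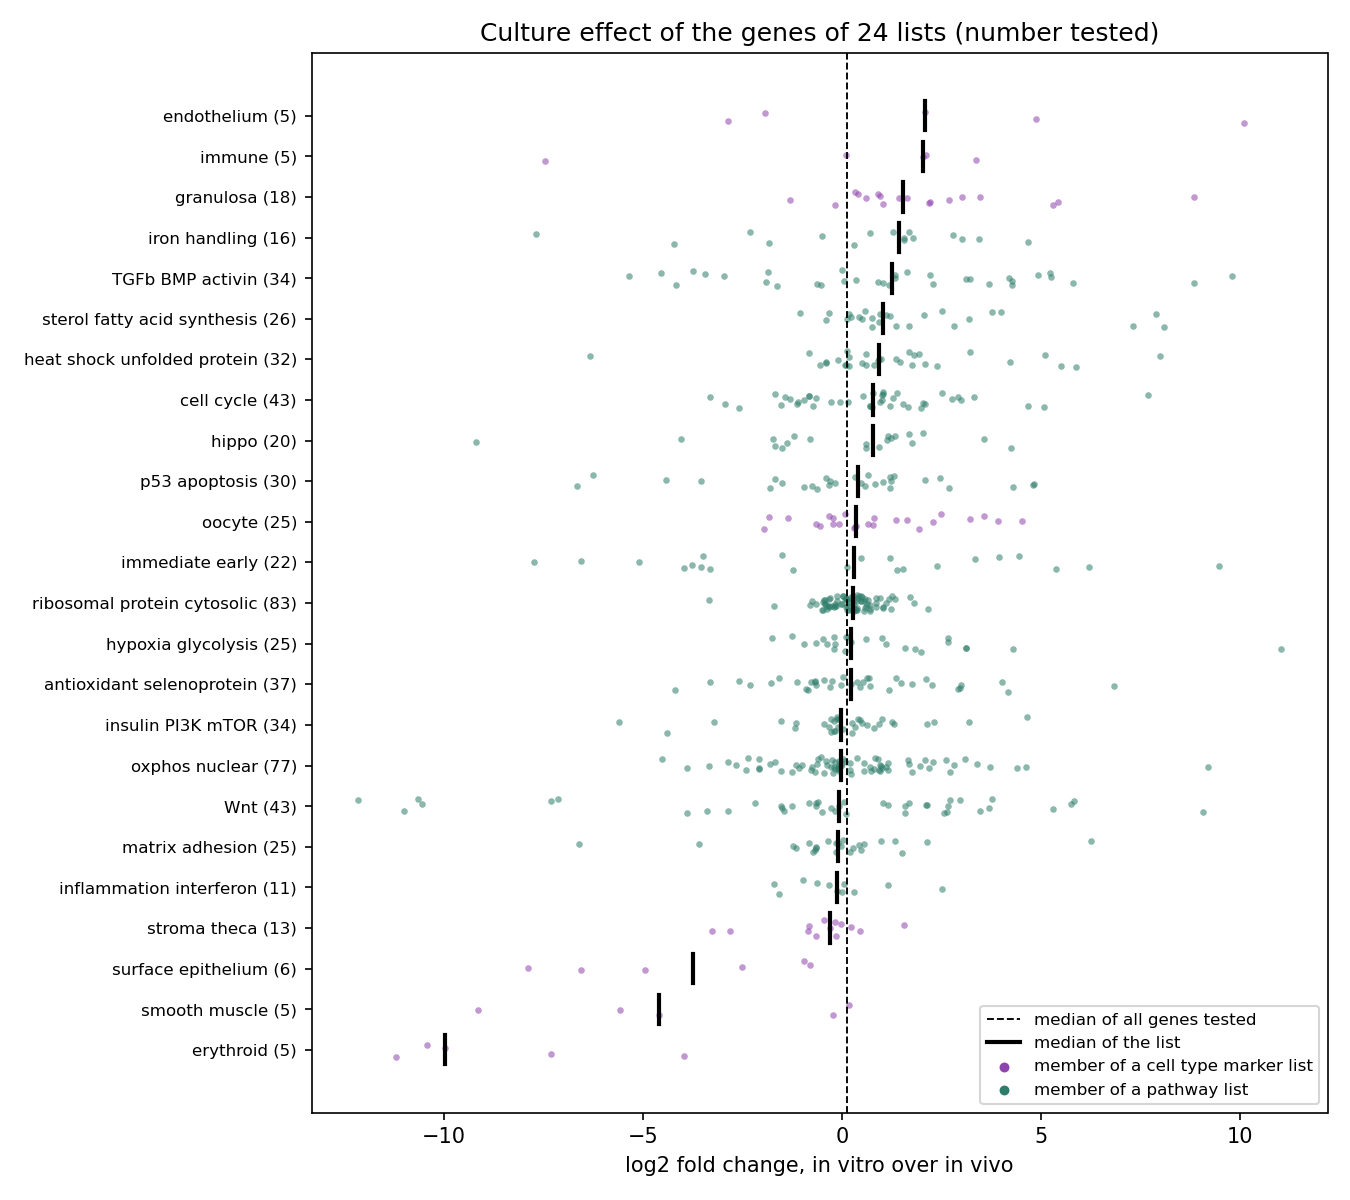
Log2 fold change of *in vitro* over *in vivo* for the tested genes of 24 lists (x axis), each point a gene, with the list median (bar) and the median of all genes tested (dashed line); numbers of genes are in brackets. Ribosomal protein genes cluster around their median of 0.27, erythroid markers have a median of -9.98, and sterol synthesis genes are spread with 23 of 26 above 0.

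Other lists had medians near that of all genes. Insulin, PI3K and mTOR genes had 17 above and 17 below 0, with a median of -0.02 and 0 at an unadjusted p under 0.05. *Irs2*, an insulin receptor substrate, had 30148 reads in 1 *in vivo* library of primordial follicles and 1 to 1029 in the other libraries. Nuclear genes of oxidative phosphorylation had 37 of 77 above 0, with a median of -0.03. At an unadjusted p under 0.05, 2 were higher and 1 lower (6.80% and 5.03% over all genes). *Uqcrfs1*, the Rieske subunit of complex III, had 3 reads in 1 *in vivo* library and 0, 26 and 769 in primordial and 396, 24 and 420 in primary follicles *in vitro* (edgeR adjusted p = 0.317; DESeq2 adjusted p = 0.000718). Cytosolic ribosomal protein genes had 57 of 83 above 0, with a median of 0.27 and none at an unadjusted p under 0.05, and this median was 0.05 to 0.44 under other scalings. Antioxidant and selenoprotein genes had 20 of 37 above 0, with a median of 0.23 (0.02 with genes at 0 in one condition set to their bound). *Txnrd2*, a mitochondrial thioredoxin reductase, had 0 reads *in vivo* and at most 121 *in vitro*.

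Iron handling genes had 11 of 16 above 0, with a median of 1.43, or 1.01 with genes at 0 in one condition set to their bound. The list median was 0.06 in primordial and 1.69 in primary follicles, against 0 and 0.44 over all genes. By edgeR, 0 were higher and 1 lower at an unadjusted p under 0.05. *Ftl1*, the ferritin light chain that stores iron, was read in all 12 libraries, with 0.817 to 14.5 CPM (median 7.82) *in vivo* and 10.8 to 46.0 CPM (median 22.7) *in vitro*. It was apart at both stages but had a log2 fold change of 1.69 ± 2.21 (edgeR adjusted p = 0.985). Hypoxia and glycolysis genes had 16 of 25 above 0, with a median of 0.24. It was 1.64 without the second *in vivo* library of primary follicles, 0.02 without the third of primordial follicles, 1.32 with limma-voom and 1.75 with the replicate block. *Hk2*, the inducible hexokinase, had 0 reads in all *in vivo* libraries, 0, 0 and 1 in primordial and 210, 5752 and 1843 in primary follicles *in vitro* (edgeR adjusted p = 0.317; DESeq2 adjusted p = 0.0347). Hippo pathway genes had 12 of 20 above 0, with a median of 0.78 over both stages. Taken by stage, the list median was -0.25 in primordial and -0.22 in primary follicles. At an unadjusted p under 0.05 by edgeR, 0 were higher and 2 lower (6.80% and 5.03% over all genes). The growth-factor-like gene *Ccn2*, a target of YAP, had 1687 and 2230 reads in 2 *in vivo* libraries of primary follicles, 5 and 239 in 2 of primordial follicles and 0 in the other 2, and at most 4 *in vitro* (edgeR adjusted p = 0.317; DESeq2 adjusted p = 0.000570). The Hippo kinase gene *Stk3* had a log2 fold change of -4.05 ± 1.78 (edgeR adjusted p = 0.326; DESeq2 adjusted p = 0.0386).

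Immediate early genes, which stress and handling switch on within minutes, had 12 of 22 above 0, with a median of 0.31. Of these, 4 were higher and 3 lower at an unadjusted p under 0.05 (6.80% and 5.03% over all genes). With the filterByExpr filter 14 were tested, and 0 were higher and 1 lower. *Egr2* had 4533 reads in 1 *in vitro* library of primary follicles and 0 in all others, and *Atf3* 665 reads in 1 *in vivo* library of primordial follicles and 0 in all others. Genes of p53 and apoptosis had 16 of 30 above 0, with a median of 0.40. *Sesn1*, a p53 target that restrains mTORC1, had a log2 fold change of -6.25 ± 2.57 (edgeR adjusted p = 0.317; DESeq2 adjusted p = 0.0119). Wnt genes had 21 of 43 above 0, with a median of -0.06, 3 higher and 5 lower at an unadjusted p under 0.05 (6.80% and 5.03% over all genes). Without the second *in vivo* library of primary follicles it was 4 higher and 1 lower. The secreted inhibitors *Dkk2* and *Sfrp2* had 0 reads in all *in vitro* libraries and 1945 and 10023 reads in the second *in vivo* library of primary follicles. Inflammation and interferon genes had 5 of 11 above 0, with a median of -0.13. *Stat3*, which carries cytokine signals, was read in all libraries, with 384 to 2299 CPM (median 991) *in vivo* and 92.9 to 685 CPM (median 357) *in vitro* (log2 fold change -1.71 ± 1.00, edgeR adjusted p = 0.496). Matrix and adhesion genes had 11 of 25 above 0, with a median of -0.10. Without 1 library at a time, the medians of these lists lay on both sides of 0, between -0.71 and 1.14 for immediate early, -0.13 and 1.03 for p53, -0.22 and 0.46 for Wnt, -0.60 and 0.46 for inflammation and -0.35 and 0.68 for matrix genes.

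Markers of other cell types differed between libraries, and 1 library stood apart. Some of these genes were also read in the MII oocyte libraries, where *Tek* had 89 to 251 and *Csf1r* 132 to 302 reads. Others were not, as *Krt19* had 0 reads and *Hba-a1* at most 2. All 5 erythroid markers were below 0 with an unadjusted p under 0.05 (5.03% lower over all genes). Their median was -9.98, or -7.30 with the 2 genes that were at 0 *in vitro* set to their bound, and DESeq2 called 1. Their summed level was 2474, 776 and 247 CPM in the *in vivo* libraries of primary follicles, 0 to 76.2 CPM in those of primordial follicles and 0 to 31.7 CPM *in vitro*. *Hba-a1*, an alpha-globin gene with a near-identical copy in *Hba-a2*, had 42352 and 7047 reads in 2 *in vivo* libraries of primary follicles and 1005 in 1 of primordial follicles, against 976, 2 and 2 reads in 3 *in vitro* libraries. The second *in vivo* library of primary follicles had 12970 CPM of smooth muscle markers against 0.409 to 270 CPM in the other 11, with 240844 reads of *Acta2*. It also had 26350 CPM of stroma and theca markers against 1110 to 11070 CPM, and 466458 reads of *Col1a1*. Of the 5 smooth muscle markers, 4 were below 0, with a median of -4.59, which became 1.66 without that library. Of the 13 markers of stroma and theca, 10 were below 0, with a median of -0.29, which became 0.70 without it. Without that library edgeR called 7 genes higher and 6 lower over both stages, *Neb* among them with a log2 fold change of -3.12 and an adjusted p of 0.0115, and the sums of other cells' markers were not tested as a part of any difference.

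**Figure D5:**
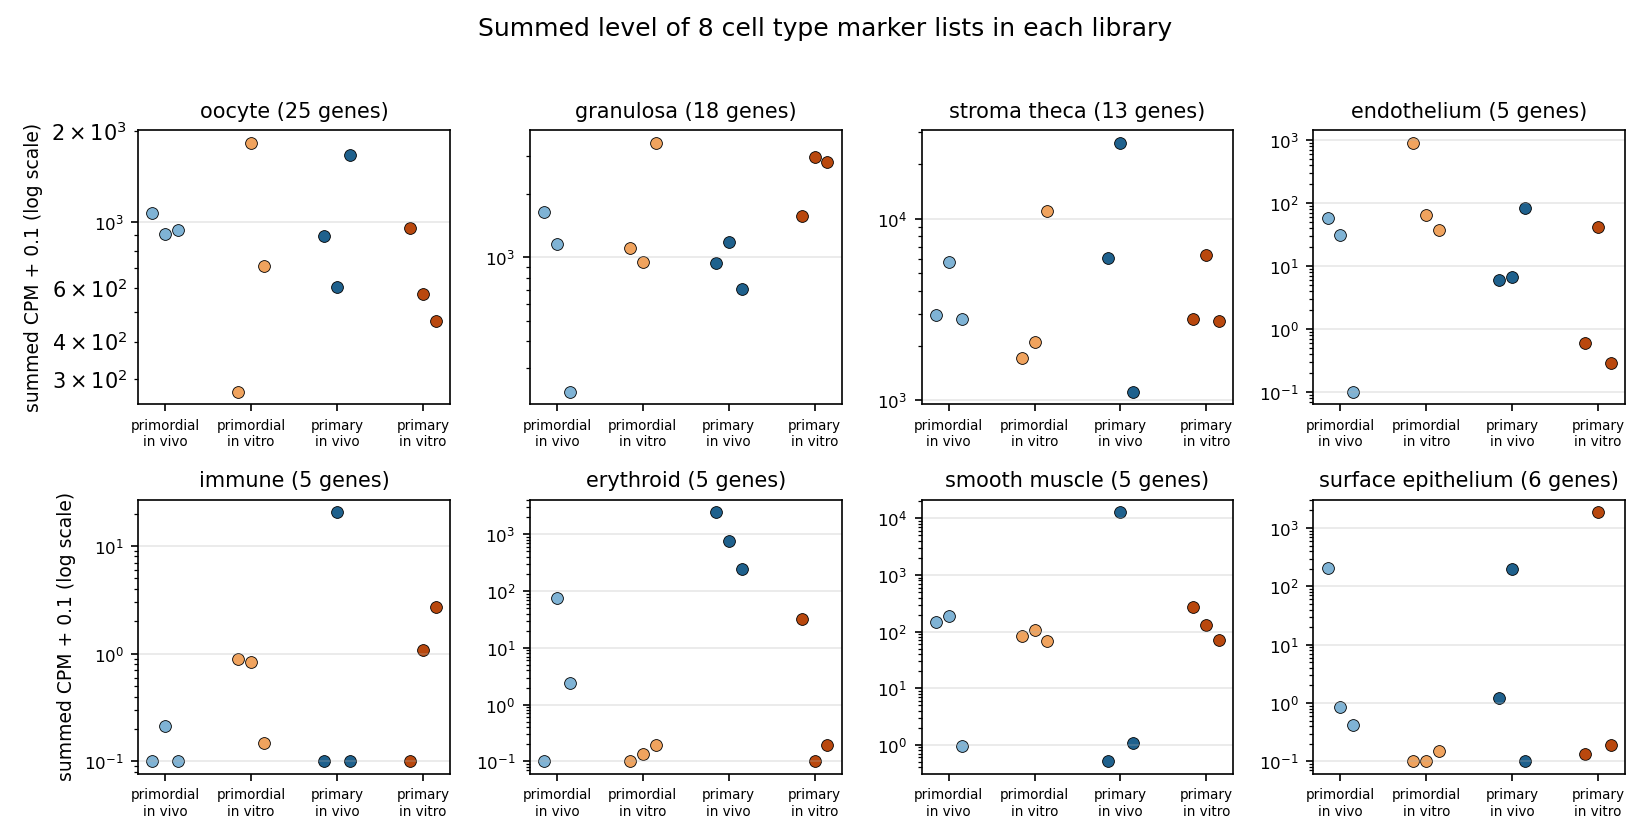
Summed level (CPM + 0.1, log scale) of 8 cell type marker lists in each of the 12 libraries, by stage and condition, each point a library. Erythroid markers are at 247 to 2474 CPM in the 3 *in vivo* libraries of primary follicles, and 1 of these libraries has the highest smooth muscle sum, 12970 CPM.

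Endothelial, immune and surface epithelium markers rested on few libraries. Of 5 endothelial markers, 3 were above 0, with a median of 2.08 (0.48 with genes at 0 in one condition set to their bound), and of 5 immune markers 4, with a median of 2.05 (0.10). The endothelial median became -0.97 without the third *in vitro* library of primordial follicles and 5.06 without the second *in vivo* library of primary follicles. *Tek*, an endothelial receptor, had 12584 reads in 1 *in vitro* library of primordial follicles, 424 in another and at most 5 *in vivo*. *Csf1r*, the macrophage receptor, had 494 reads in the second *in vivo* library of primary follicles and 1 elsewhere. *Krt19*, an epithelial keratin, had 41859 reads in 1 *in vitro* and 3356 in 1 *in vivo* library of primary follicles, 733 in 1 *in vivo* library of primordial follicles and at most 1 elsewhere. All 6 surface epithelium markers were below 0 over both stages, with a median of -3.74, which became -0.27 without the first *in vivo* library of primordial follicles. The stages differed in sign, with a list median of -9.44 in primordial and 1 in primary follicles. The summed level of these markers was at most 202.5 CPM *in vivo*, and 1879 CPM in the second *in vitro* library of primary follicles.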

How the data were processed

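Oocytes were captured from 4% paraformaldehyde-fixed sections, and RNA was isolated, amplified by Ovation PICO SL WTA V2 and enriched by exome capture (TruSeq RNA Access). The authors trimmed reads with Trim Galore 0.4.1, aligned them with TopHat2 to mm10 and deposited featureCounts counts per gene. The strand and multimapping settings are not given in the sources used here. The authors also deposited TPM, which was used in alternatives only. Of 53715 gene IDs, 53620 matched the annotation.

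Counts were fitted with edgeR 4.0.16 (R 4.3.3; TMM, robust quasi-likelihood test, stage and condition as terms) on 15317 genes with at least 10 counts over the 12 libraries. Genes were called at an adjusted p (Benjamini-Hochberg) under 0.05 if they also differed at least 2-fold. A model of 4 groups gave the effects within stages and the interaction. Alternatives were DESeq2 1.42.0, limma 3.58.1 (voom, and log2(TPM + 1) or log2(TPM + 0.1)), other scalings and filters, a replicate block and leaving out each library. Library values were compared by exact permutation within stages. The main fit was also run on simulated counts with known changes as a check of the code. It is not used here as a measure of what could be detected.

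Named were the 12 genes with the smallest p in each direction, up to 8 per direction whose libraries did not overlap, 2 per list, 3 interaction genes per direction and the highest gene of each marker list, predicted models left out. *Ybx2*, *Zp3*, *Foxl2*, *Insig1*, *Scd2*, *Hmgcs1*, *Elovl6*, *Ftl1* and others marked so were named after their values were seen, as was the rule of no overlap within both stages. The members and lists were chosen with earlier results of these data known. Some genes that this rule would name are not reported here.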

Additional observations from a re-analysis of the deposited data

Results flagged for a closer look

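A group was the 6 libraries of a condition, taken for each named gene read there. The total count, the genes detected and the share of the top 10 genes were also taken. Of 194 groups, the highest or the lowest library stood apart from the other 5 in 57, all of named genes. The gap was beyond Dixon's critical value for 6 samples, on the log2(CPM + 1) scale for genes. The usual rate for this value is about 1 in 20, but it cannot be set against the 57. Many of these genes were chosen by their values, several had 0 reads in the other libraries, and each group mixed both stages. Of the 57 groups, 25 were *in vivo* and 32 *in vitro*. The numbers below are the gap as a share of the range, and most of these genes had few or 0 reads in the other libraries of the condition. The second *in vivo* library of primary follicles stood apart for *Pgp* (0.961), *Inhbb* (1), *Amh* (0.865), *Cyp11a1* (1), *Col1a1* (0.685), *Csf1r* (0.988), *Cnn1* (0.99), *Tagln* (0.73), *Pfkp* (0.816), *Sfrp2* (0.991), *Mmp9* (0.876) and *Elovl6* (1). The second *in vitro* library of primary follicles stood apart for *C1qb* (1), *Upk1b* (0.905), *Hspa1b* (0.985), *Hfe* (0.845), *Irs2* (0.742), *Scd1* (0.663), *Msmo1* (0.632) and *Krt19* (0.996). The first *in vitro* library of primary follicles stood apart for *Prkg1* (0.99), *Hba-a1* (0.974), *Tagln* (0.723), *Txnrd2* (0.658), *Egr2* (1), *Cdkn2c* (0.889) and *Hspa5* (0.741). The third *in vitro* library of primary follicles stood apart for *Tmem47* (0.945), *Amh* (0.695), *Cyp11a1* (1), *Gadd45g* (0.946), *Pcdha6* (1) and *Crem* (0.972). The first *in vitro* library of primordial follicles stood apart for *Ttc4* (0.767), *Rpl36a* (0.653), *D6Ertd527e* (0.749), *Hspa8* (0.901), *Foxl2* (0.699) and *Hmgcs1* (0.755). The first *in vivo* library of primordial follicles stood apart for *Msln* (0.892), *Cp* (1), *Mlst8* (0.856), *Stk3* (0.666) and *Atf3* (1). The third *in vitro* library of primordial follicles stood apart for *Pecam1* (0.659), *Trib3* (0.966), *Vtn* (0.98) and *Mcm3* (0.652). The third *in vivo* library of primordial follicles stood apart for *Nfatc2* (1), *Pcdha6* (1), *Crem* (0.948) and *Hist1h2ag* (0.751). The third *in vivo* library of primary follicles stood apart for *Elavl3* (0.734) and *Oosp1* (1). The second *in vivo* library of primordial follicles stood apart for *Rpf2* (0.911) and *Rpl3l* (1). The second *in vitro* library of primordial follicles stood apart for *Bmp2* (0.981). Of these, *Stk3*, *Rpl36a*, *D6Ertd527e*, *Hspa5*, *Hspa8*, *Foxl2* and *Hmgcs1* were low in that library and the rest high.

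The culture effect differed between the stages for 16 genes by edgeR's test of the difference (adjusted p under 0.05). The named ones had an interaction (primary minus primordial, log2) of 25.64 (*Pcdha6*), -13.42 (*Tubb3*), -13.29 (*D6Ertd527e*), 20.63 (*Crem*), 15.71 (*Hist1h2ag*) and -12.64 (*Ptp4a1*). Over other settings each of these 6 kept its sign, and its call was lost in 7 to 12 of 15 or 16 settings.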

How the results depend on the processing

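Over both stages, 12 of 15 other settings also called 0 genes in either direction. Among these 12 was the main fit called by adjusted p alone, whose 0 was fixed by the smallest adjusted p of 0.239. The exceptions were a filter on more than 3 counts in at least 6 libraries, with 0 higher and 1 lower (*Neb*), limma-voom with sample quality weights, with 7 and 1, and DESeq2, with 180 and 127. DESeq2 called 812 genes in primordial and 254 in primary follicles and 554 for the interaction. RLE size factors in edgeR gave 1 gene in primary follicles, and filterByExpr gave 0 in primordial follicles and 0 for the interaction. Genes at an unadjusted p under 0.05 numbered 187 to 1620 higher and 85 to 1265 lower. The median over all genes was 0.14, 0.01 with RLE, 0.05 with TMMwsp and 0.27 with library size alone. The libraries share replicate numbers only: no library's deviation correlated best with that of its own number, and the 6 correlations lay between -0.027 and 0.012. With the replicate block, 0 genes were called over both stages, 0 in primordial follicles and 0 for the interaction, with 301 higher and 85 lower over both stages at an unadjusted p under 0.05.

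Without each library in turn, edgeR called 0 to 7 genes higher and 0 to 10 lower over both stages, the most without the second and the third *in vivo* library of primary follicles, and 0 in both directions in 4 of 12 cases. It called 0 to 13 genes in primordial follicles, 0 to 4 in primary follicles and 0 to 20 for the interaction. The difference in genes detected was 327 to 1687, the difference in total count -2288000 to 1226000, the ratio of distances 0.985 to 1.091 (exact permutation p = 0.04 to 0.64) and the difference in the share of the top 10 genes -2.23 to -1.22 percentage points (exact permutation p = 0.01 to 0.08).

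Of 1550 values of 109 named genes under other settings, 1544 kept their direction. These include the values called by adjusted p alone, which are those of the main fit. The log2 fold change of *Rpl36a*, -1.71, became 0.74 with limma-voom and 0.40 and 0.56 on log2(TPM + 1) and log2(TPM + 0.1), and that of *Acta2* became 0.14 with limma-voom. Without the stage covariate *Krt19* became 3.44 and *Hmgcs1* -0.22. Without 1 library, 7 of 1289 values reversed, in *Krt19* (-11 to 1.49), *Hmgcs1* (-0.05 to 1.76), *Cyp11a1* (-4.79 to 2.52) and *Col1a1* (-1.94 to 0.65). The cause of these changes was not tested. The spread between libraries and genes at 0 in most of them limit what these data can resolve, and a difference that was not called is not shown to be absent.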

Other observations

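MII oocytes, which were prepared with other kits and fitted in a model of their own, gave a separate look at the genes that did not overlap between the conditions. Of 20 genes that were higher in all *in vitro* libraries of small follicles and were also tested in MII oocytes, 13 had a higher level in the *in vitro* MII group, and 0 were called. Over all 11960 genes tested in both, 6291 were higher in that group. Among all genes of the MII model, whether or not tested in small follicles, 60 were called at an adjusted p under 0.05 with at least 2-fold. The 0 above was counted by adjusted p alone.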
